A study of Homo sapiens with 11 samples.

Results

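Knockdown of NAE1 was compared directly with knockdown of UBE2M in HEK293T cells, a human embryonic kidney line that carries the SV40 large T antigen. The comparison took the 3 libraries of siNAE1 cells and the 3 libraries of siUBE2M cells, which are 6 of the 11 samples of the series. Messenger RNA was sequenced 48 h after transfection with Lipofectamine RNAiMAX and an siRNA against NAE1 at 50 nM or against UBE2M at 70 nM. The other samples were 3 control libraries and 2 libraries of cells given an siRNA against URM1, and they served here to place each difference. The labels describe the control as a control siRNA, and the study's methods name a non-targeting siRNA as its negative control without a dose, whereas 1 figure of the study names the control libraries HKWT. All 4 groups came from the same line, both siRNAs differ in dose, and the replicates are called biological without saying from which cultures, so that the p-values measure the spread between these libraries.

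NEDD8 is a ubiquitin-like protein that is joined to its targets by an enzyme cascade. NAE1 is the regulatory subunit of the E1, which works as a pair with the catalytic subunit UBA3, and it passes activated NEDD8 to either of the E2 enzymes UBE2M and UBE2F. UBE2M serves most cullins, while UBE2F serves CUL5, and NEDD8 on a cullin activates the ubiquitin ligase that the cullin scaffolds. NAE1 thus stands upstream of both E2 enzymes and UBE2M on 1 branch, and the study asked whether this machinery also acts on URM1, a ubiquitin-like protein that otherwise carries sulfur for the thiolation of transfer RNA.

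The libraries of the 2 knockdowns were of like depth. Total counts were 11733163 to 15092821 in siNAE1 cells and 13465165 to 14996068 in siUBE2M cells. Pearson's r of log2 CPM (counts scaled to library size with TMM factors) across genes was 0.983 to 0.986 between siNAE1 libraries, 0.987 to 0.989 between siUBE2M libraries and 0.966 to 0.971 between a library of each, and these points are genes, which are not independent replicates. Fewer genes had a count in siNAE1 cells (24212 to 25214) than in siUBE2M cells (25704 to 26560). Mitochondrial genes took 4.90% to 5.32% of counts in siNAE1 cells and 4.12% to 4.43% in siUBE2M cells, and noncoding genes 3.62% to 3.73% and 3.35% to 3.49%. The part of these shares in the results was not tested. All 12 kidney and neural genes known from HEK293 cells were tested, with VIM at 41.3 to 72.7 and NEFM at 15.6 to 41.1 FPKM as deposited, a level per gene length and depth, whereas no liver marker exceeded 9 counts and KRT7, HBB and CD3E had none. Of the markers of HeLa, blood and fibroblast cells, 5 of 8, 2 of 8 and 4 of 7 passed the filter on low counts, and KRT17, with at most 18 counts, was the only one among them that was called between the knockdowns (2.05). That call was lost without siNAE1 replicate 2 or siUBE2M replicate 1 (adjusted p = 0.0575 and 0.0669, edgeR). Of the 12 HEK293 genes, 4 were higher in siNAE1 cells and 4 lower at an adjusted p under 0.05, against 22.7% and 21.6% of all tested genes. Their median log2 fold change was -0.14. NEFM, a neurofilament, was the 1 called gene (1.31), against 2.85% of all tested genes called higher and 4.99% called lower.

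The targeted genes separated the groups. NAE1 (chr16:66802875-66873256, GRCh38) had 41.6, 42.6 and 35.2 CPM in siNAE1 cells and 128, 123 and 121 CPM in siUBE2M cells. UBE2M (chr19:58555712-58558960) had 229.7, 234 and 246 CPM in siNAE1 cells and 15.6, 15.6 and 19.1 CPM in siUBE2M cells. For each gene the 3 libraries of its own knockdown lay below all 3 of the other. By the quasi-likelihood test of edgeR, with p-values adjusted by Benjamini-Hochberg here and throughout, the log2 fold change of siNAE1 over siUBE2M was -1.63 (SE 0.08, adjusted p = 5.0e-17) for NAE1 and 3.82 (SE 0.08, adjusted p = 5.6e-27) for UBE2M. Against mean control levels of 102 and 265 CPM, NAE1 was at 39.8 CPM and UBE2M at 16.8 CPM in their own knockdowns, so the residual message was larger for NAE1. The gene not targeted moved little: UBE2M was at -0.16 against control in siNAE1 cells and NAE1 at 0.28 in siUBE2M cells on the log2 scale (adjusted p = 0.029 and 0.0019, edgeR). UBE2MP1, a pseudogene of UBE2M that may share its fragments, followed UBE2M with a log2 fold change of 2.97. Depth of knockdown, dose and target cannot be told apart in the differences that follow.

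**Figure D1:**
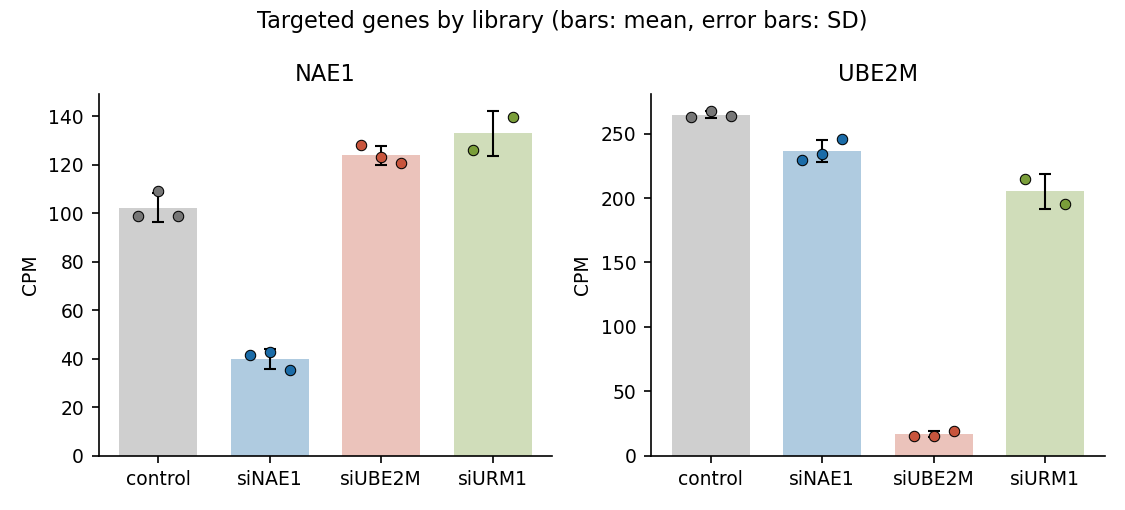
CPM of NAE1 and UBE2M in every library (points) of control, siNAE1, siUBE2M and siURM1 cells, with the group mean (bars) and SD (error bars). NAE1 was at 35.2 to 42.6 CPM in siNAE1 cells and UBE2M at 15.6 to 19.1 CPM in siUBE2M cells.

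Between the knockdowns, 1440 of 18368 tested genes were called (7.84%), with 524 higher in siNAE1 cells (2.85%) and 916 lower (4.99%). A call required an adjusted p under 0.05 together with a log2 fold change of 1 or more in size, and every fold change given without another name is siNAE1 over siUBE2M. Without the threshold on the fold change, 4164 genes were higher (22.7%) and 3970 lower (21.6%). The median log2 fold change of all tested genes was -0.02 and the median of its absolute value 0.34, with a biological coefficient of variation of 7.06%. Of the called genes, 1372 had no overlap between the 3 and 3 libraries. Among all tested genes, the siNAE1 libraries lay wholly above in 25.4% and wholly below in 25.3%.

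The share of genes called differed by abundance. Among genes with a mean over 100 CPM, 1.22% were called higher and 0.35% lower, while among genes under 1 CPM 3.53% were higher and 9.79% lower. Protein-coding genes made up 64.7% of the genes called higher and 61.9% of those called lower, against 76.3% of all tested genes. Long noncoding RNAs made up 21.4% and 24.8%, against 14% of all tested genes.

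The control libraries served to place each called gene. The same fit called 973 genes higher (5.30%) and 1582 lower (8.61%) in siNAE1 cells than in control, and 591 higher (3.22%) and 715 lower (3.89%) in siUBE2M cells. Both comparisons share the control libraries. Of the 916 genes that were lower in siNAE1 than in siUBE2M cells, 459 were called below control in siNAE1 cells alone, 122 above control in siUBE2M cells alone, 58 below control in both, 6 above control in both, 4 in opposite directions and 267 in neither. Of the 524 genes that were higher, 277 were called above control in siNAE1 cells alone, 61 below control in siUBE2M cells alone, 16 above control in both, 3 below control in both, 2 in opposite directions and 165 in neither. The control mean lay nearer to the siUBE2M mean than to the siNAE1 mean for 73.9% of the lower genes and 74% of the higher genes. The siURM1 mean lay nearer to siUBE2M for 54.1% and 61.5%.

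**Figure D2:**
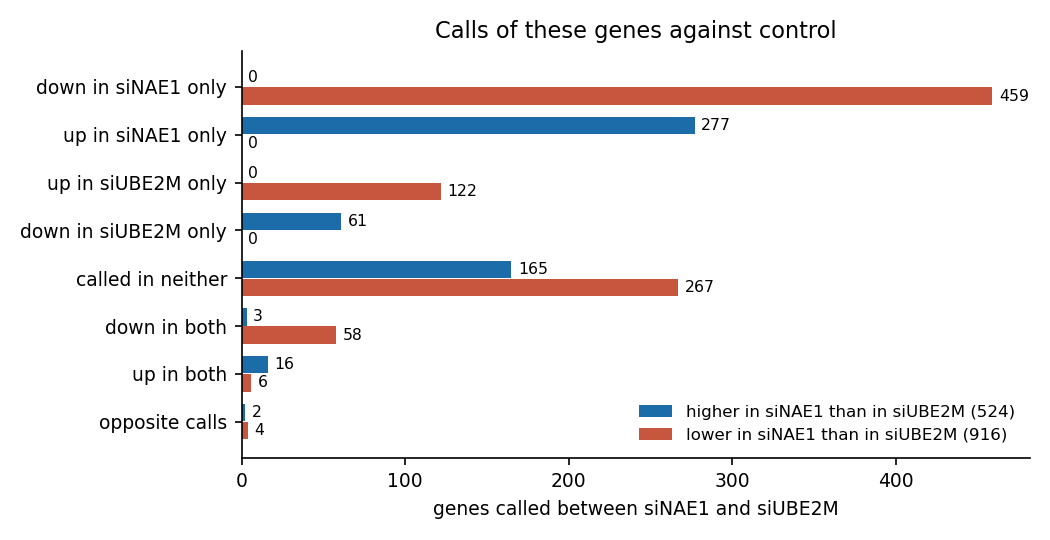
Number of genes called between siNAE1 and siUBE2M cells, split by their calls against control in each knockdown. The largest classes are 459 genes below control in siNAE1 cells alone and 277 above control in siNAE1 cells alone.

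Called changes against control in opposite directions were found in 6 genes, which are named here after their values were seen. CELF3, a splicing regulator of neurons, and S100A4, a calcium-binding protein, were above control in siNAE1 cells and below it in siUBE2M cells. ATP12A, a proton pump of the colon and kidney, ERAP2, a peptidase that trims antigens, PLS3-AS1 and ZNF137P went the other way. All 6 were scarce: S100A4 had 3.38, 4.75 and 4.93 CPM in siNAE1 cells and 0.442, 0.590 and 0.211 CPM in siUBE2M cells, and ERAP2 had 0.999, 0.210 and 0.449 CPM in siNAE1 cells and 5.23, 5.90 and 5.13 CPM in siUBE2M cells. In all 6 genes the libraries of the knockdowns did not overlap, and ERAP2 in siNAE1 cells overlapped with control.

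Beyond NAE1 and UBE2M, no gene of NEDD8 conjugation was called, beside 2.85% of all tested genes called higher and 4.99% called lower. Of the 20 listed genes, both targets included, 6 were higher and 4 lower at an adjusted p under 0.05, against 22.7% and 21.6% of all tested genes. The median log2 fold change was -0.05 and changed sign under the alternatives run (-0.07 to 0.06). NEDD8 itself had 53, 64.1 and 60.2 CPM in siNAE1 cells and 43.4, 42.5 and 48.8 CPM in siUBE2M cells, all 3 of the former above all 3 of the latter, with a log2 fold change of 0.40 (SE 0.09, adjusted p = 4.6e-04) by edgeR. UBA3, the partner of NAE1 in the E1, had 75.7, 85.4 and 73.2 CPM in siNAE1 cells, like the control mean of 75.5 CPM, and 105, 99.3 and 98 CPM in siUBE2M cells, a log2 fold change of -0.37 (SE 0.07, adjusted p = 6.9e-05) by edgeR. UBE2F, the other E2, did not pass the test between the knockdowns, with 10.5, 7.62 and 10.8 CPM in siNAE1 cells and 10.3, 9.51 and 11 CPM in siUBE2M cells and a log2 fold change of -0.10 (adjusted p = 0.62, edgeR).

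Per length, UBE2M was the more abundant E2 also after its knockdown. Its mean was 143 FPKM in control cells, 127 FPKM in siNAE1 cells and 9.05 FPKM in siUBE2M cells, while UBE2F was at 3.44, 2.24 and 2.39 FPKM. The RING proteins of the cullin ligases were higher in siNAE1 cells, RBX1 by 0.56 and RNF7 by 0.54 on the log2 scale. RNF7, the partner of CUL5, had 55.4, 55.2 and 62.7 CPM in siNAE1 cells and 38.5, 35.1 and 45.4 CPM in siUBE2M cells, below the control mean of 56.4 CPM. Among the cullins, CUL4B was higher (0.24) and CUL1 (-0.34) and CUL9 (-0.68) were lower at an adjusted p under 0.05 by edgeR, and CUL2, CUL3, CUL4A, CUL5 and CUL7 did not pass. CUL9 had 27.2, 24.5 and 28.2 CPM in siNAE1 cells and 42.6, 47 and 38 CPM in siUBE2M cells, both below the control mean of 57.2 CPM.

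The machinery that removes NEDD8 differed by less than the fold change threshold. The 14 listed genes were those of the COP9 signalosome, which strips NEDD8 from cullins, the exchange factor CAND1 and related genes. Of these, 6 were higher and 3 lower at an adjusted p under 0.05, against 22.7% and 21.6% of all tested genes. None was called, beside 2.85% higher and 4.99% lower of all tested genes, and the median was 0.17. COPS7A had 85.2, 95.2 and 90.8 CPM in siNAE1 cells and 55.7, 55.5 and 59.7 CPM in siUBE2M cells, and the control mean was 84.3 CPM. COPS4 (0.52), GPS1 (0.50), COPS7B (0.40) and COPS2 (0.40) were also higher by edgeR. SENP8, a protease that matures NEDD8, was lower, with 4.46, 4.55 and 3.77 CPM in siNAE1 cells and 8.84, 6.75 and 6.88 CPM in siUBE2M cells and a log2 fold change of -0.80 (SE 0.17, adjusted p = 2.4e-04) by edgeR. The 36 adaptors and substrate receptors of cullin ligases held no called gene either, beside 2.85% higher and 4.99% lower of all tested genes. At an adjusted p under 0.05, 10 were higher and 7 lower, near the 22.7% and 21.6% of all tested genes. Their median was 0.06, which was 0.03 to 0.14 under the alternatives run.

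The URM1 pathway thiolates the wobble uridine of some transfer RNAs, and the Elongator complex modifies the same base. None of their 16 genes was called, beside 2.85% higher and 4.99% lower of all tested genes. At an adjusted p under 0.05, 7 were higher and 4 lower, against 22.7% and 21.6% of all tested genes, and the median was 0.17. URM1 itself had 63.6, 66.3 and 64.7 CPM in siNAE1 cells and 46.5, 44.6 and 52.8 CPM in siUBE2M cells without overlap, a log2 fold change of 0.44 (SE 0.08, adjusted p = 3.0e-05) by edgeR. MOCS3, the enzyme that activates URM1, had 18.1, 18 and 16.1 CPM in siNAE1 cells and 13.7, 12 and 13.8 CPM in siUBE2M cells, with all siNAE1 libraries above and a log2 fold change of 0.41. KTI12, which regulates Elongator, was higher in siNAE1 cells by 0.82, and ALKBH8, a methyltransferase of the wobble uridine, was lower (-0.64) on the log2 scale. CTU1 and CTU2, the thiolase subunits, did not pass, at 0.24 and -0.23.

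The list with the most called genes was that of the targets of ATF4, the transcription factor of the integrated stress response that turns on amino acid synthesis and transport. Of 43 listed targets, 10 were called lower in siNAE1 than in siUBE2M cells and none higher, beside 4.99% and 2.85% of all tested genes. At an adjusted p under 0.05, 34 were lower and 2 higher, beside 21.6% and 22.7%, and their median was -0.46 against -0.02 for all tested genes. The medians against control were -1.06 in siNAE1 cells and -0.69 in siUBE2M cells. Of the 43 targets, 25 and 13 were called below control, beside 8.61% and 3.89% of all tested genes. ATF4 itself had 1289, 1397 and 1374 CPM in siNAE1 cells and 1328, 1270.1 and 1421 CPM in siUBE2M cells, which overlapped, and a log2 fold change of 0.02 (adjusted p = 0.86, edgeR).

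ATF4 binds the amino acid response element, and the windows upstream of 3 genes that hold this motif or, for comparison, that of the heat shock response are shown here because each of these genes was called between the knockdowns. A motif search took the 250 bases before the first listed RefSeq start of each gene (GRCh38.p14), in which TGATGNAA was sought on both strands. The motif was found in 6 of the 35 ATF4 targets with a window (17.1%), in 1.39% of the 12315 of 18368 tested genes with one and in 3.19% of all 27303 windows. It was found in AARS, ASNS, ATF3, BCAT1, CHAC1 and FGF21. A match is a description of letters, not of binding. The upstream strand is given 5′ to 3′, with the motif in capitals, for ASNS (chr7:97872409-97872658, minus strand) and CHAC1 (chr15:40953221-40953470, plus strand), and for comparison for HSPA1B (chr6:31827488-31827737, plus strand), where the capitals mark the heat shock element GAANNTTC.
ASNS: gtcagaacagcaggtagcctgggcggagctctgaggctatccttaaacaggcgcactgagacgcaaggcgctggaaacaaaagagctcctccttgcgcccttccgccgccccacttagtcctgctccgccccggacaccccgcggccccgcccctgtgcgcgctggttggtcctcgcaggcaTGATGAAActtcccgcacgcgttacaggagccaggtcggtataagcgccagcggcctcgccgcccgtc
CHAC1: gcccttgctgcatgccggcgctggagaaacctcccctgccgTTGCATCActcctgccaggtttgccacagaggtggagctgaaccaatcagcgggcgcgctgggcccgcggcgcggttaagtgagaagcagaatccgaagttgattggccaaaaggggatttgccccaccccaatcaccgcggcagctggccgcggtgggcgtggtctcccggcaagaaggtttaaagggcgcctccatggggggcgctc
HSPA1B: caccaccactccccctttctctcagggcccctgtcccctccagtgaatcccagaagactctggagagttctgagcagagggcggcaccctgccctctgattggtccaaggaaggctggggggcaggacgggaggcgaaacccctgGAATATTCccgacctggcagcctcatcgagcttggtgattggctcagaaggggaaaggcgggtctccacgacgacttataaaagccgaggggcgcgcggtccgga
In these windows the motif began 68 bases before the start of ASNS, 209 before that of CHAC1 and 105 before that of HSPA1B.

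ASNS, which makes asparagine, had 7.22, 8.46 and 9.15 CPM in siNAE1 cells and 27.4, 30.4 and 24.5 CPM in siUBE2M cells. The 3 control libraries, at 20.1, 16.8 and 20.7 CPM, lay between the knockdowns without overlap, so that ASNS was below control in siNAE1 cells (-1.22 on the log2 scale) and above it in siUBE2M cells (0.52). Its log2 fold change between the knockdowns was -1.73 (SE 0.12, adjusted p = 8.1e-13) by edgeR's quasi-likelihood test. CHAC1, which degrades glutathione, had 12.9, 12.7 and 10.8 CPM in siNAE1 cells, 34, 38.3 and 40.9 CPM in siUBE2M cells and 83.7, 86.1 and 85.7 CPM in control cells. Both knockdowns were below control, and siNAE1 cells were lower still, with a log2 fold change of -1.63 (SE 0.10, adjusted p = 2.6e-14) by edgeR.

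ALDH1L2, a mitochondrial folate enzyme, had 28.3, 27.3 and 22.6 CPM in siNAE1 cells and 90.1, 87.8 and 69 CPM in siUBE2M cells, against a control mean of 215 CPM. PCK2, the mitochondrial phosphoenolpyruvate carboxykinase, had 50.3, 52.2 and 55 CPM in siNAE1 cells and 114, 102 and 117 CPM in siUBE2M cells against 191 CPM. NUPR1, a stress-induced chromatin protein, had 2.84, 2.45 and 4.31 CPM in siNAE1 cells and 9.13, 9.77 and 11.2 CPM in siUBE2M cells against 42.3 CPM. In these 3 genes every siNAE1 library lay below every siUBE2M library and both lay below control, with log2 fold changes between the knockdowns of -1.65, -1.08 and -1.67. ADM2, a peptide hormone, fell furthest behind siUBE2M cells at -2.36, and JDP2, a bZIP repressor, was at -1.29. VLDLR, a lipoprotein receptor (-1.08), and SLC7A11, the cystine importer (-1.02), were just past the threshold, and each was under it without siNAE1 replicate 3 (-0.92 and -0.96). SLC7A11 was also under it without siUBE2M replicate 1 (-0.94) or 2 (-0.95). FGF21, a hormone with at most 0.42 CPM in siNAE1 cells, was called at -1.34 (adjusted p = 0.049, edgeR), a call that was lost without any 1 of the control or siUBE2M libraries, siNAE1 replicate 1 or 3 or siURM1 replicate 2, with adjusted p-values of FGF21 from 0.0506 to 0.166.

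Several targets with large changes against control did not separate the knockdowns. TRIB3, a pseudokinase that restrains this response, had 39, 46.8 and 44.3 CPM in siNAE1 cells and 45.7, 42.6 and 51.6 CPM in siUBE2M cells against a control mean of 277 CPM. INHBE, an activin subunit, had 11.2, 12.4 and 11.2 CPM in siNAE1 cells and 10.8, 11.1 and 13.9 CPM in siUBE2M cells against 101 CPM. In both genes the libraries of the knockdowns overlapped, and the adjusted p-values were 0.31 and 0.83 by edgeR. The 2 targets higher in siNAE1 cells were ATF5, a related bZIP factor at 0.998 and so just under the fold change threshold, and GDF15 (0.91), a secreted stress hormone that was below control in both knockdowns.

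The aminoacyl-tRNA synthetases, which load transfer RNA and of which several are ATF4 targets, were mixed. Of 36 genes, 1 was called higher and 1 lower, against 2.85% and 4.99% of all tested genes. At an adjusted p under 0.05, 10 were higher and 17 lower, against 22.7% and 21.6%, and the median was -0.11. YARS, the tyrosyl enzyme, had 337, 345 and 355 CPM in siNAE1 cells and 757, 752 and 789.9 CPM in siUBE2M cells, without overlap and with a log2 fold change of -1.15. MARS2, the mitochondrial methionyl enzyme, went the other way, with 43.7, 44.4 and 42.2 CPM in siNAE1 cells and 20.5, 19.9 and 18.6 CPM in siUBE2M cells and 1.14. CARS (-0.82), AARS (-0.71) and GARS (-0.63) were lower in siNAE1 cells, and PHGDH, the first enzyme of serine synthesis, was lower (-0.65) with 557, 615 and 623 CPM in siNAE1 cells and 926, 900.0 and 985 CPM in siUBE2M cells.

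**Figure D3:**
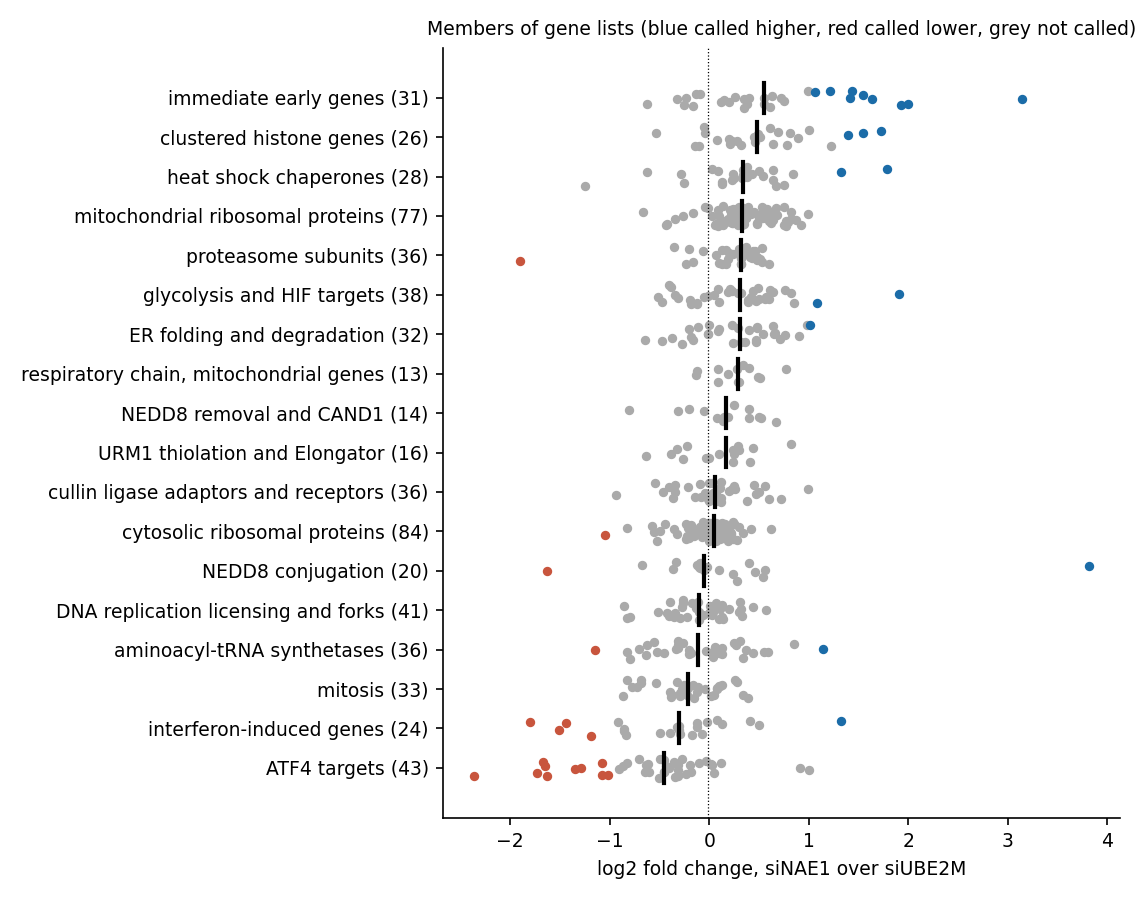
Log2 fold changes of siNAE1 over siUBE2M for the tested members of 18 gene lists, with the number of members in parentheses, the median of each list (black bar) and the median of all tested genes (dotted line at -0.02). ATF4 targets have the lowest median (-0.46) and immediate early genes the highest (0.55).

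Immediate early genes, which growth factor and stress signals induce rapidly, were the group with the most calls in the other direction. Of 31 genes, 9 were called higher in siNAE1 cells and none lower, beside 2.85% and 4.99% of all tested genes. At an adjusted p under 0.05, 18 were higher and 4 lower, beside 22.7% and 21.6%, and the median was 0.55. The medians against control were 0.77 in siNAE1 cells and 0.12 in siUBE2M cells. ARC, a capsid-like protein known from neurons, had 25.2, 24.3 and 31.8 CPM in siNAE1 cells, 2.50, 3.74 and 2.88 CPM in siUBE2M cells and 3.14, 2.64 and 3.66 CPM in control cells. The siUBE2M and control libraries overlapped, and all siNAE1 libraries lay far above both, with a log2 fold change between the knockdowns of 3.14 (SE 0.17, adjusted p = 8.7e-16) by edgeR.

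FOS, a subunit of the AP-1 factor, had 19.3, 16.4 and 18.7 CPM in siNAE1 cells and 6.33, 5.18 and 6.04 CPM in siUBE2M cells. EGR1, a zinc finger factor, had 43.9, 45 and 46.3 CPM in siNAE1 cells and 18.4, 16.5 and 15.9 CPM in siUBE2M cells, and DUSP5, a nuclear phosphatase of ERK, had 23.6, 24.9 and 24.9 CPM in siNAE1 cells and 6.48, 5.70 and 6.25 CPM in siUBE2M cells. None of these libraries overlapped, the log2 fold changes were 1.63, 1.41 and 1.99, and the control means were 4.55, 18.8 and 4.31 CPM. In siUBE2M cells FOS and EGR1 overlapped with control, and DUSP5 lay above it. The 2 siURM1 libraries were also above control, at 18.3 and 19.5 CPM for FOS, 55 and 53.1 for EGR1 and 18.1 and 18.6 for DUSP5, while ARC was at 5.43 and 4.57 CPM there.

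MYC, a driver of growth, moved in both knockdowns. It had 229.6, 233 and 245 CPM in siNAE1 cells, above 166, 157 and 177 CPM in control cells, and 103, 101 and 100.4 CPM in siUBE2M cells, below control. The 3 groups did not overlap, and the log2 fold change between the knockdowns was 1.22 (SE 0.06, adjusted p = 2.8e-16) by edgeR. EGR3 (1.93), DUSP2 (1.54), EGR2 (1.43) and FOSL1 (1.06) were called as well, all at no more than 5.92 CPM in any of the 6 libraries, and FOSL1 was under the threshold without siNAE1 replicate 3 (0.73) or siUBE2M replicate 2 (0.85). JUNB had a log2 fold change of 0.99, just under the threshold. JUN, another AP-1 subunit, did not pass the test between the knockdowns (-0.09, adjusted p = 0.2, edgeR) and was called below control in each. The immediate early genes KLF4 (-0.63), NR4A1 (-0.32), KLF6 (-0.25) and ATF3 (-0.24) were the 4 that were lower in siNAE1 cells.

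Most heat shock chaperones were higher in siNAE1 cells. Of 28 heat shock chaperones and their regulators, 2 were called higher and none lower, beside 2.85% and 4.99% of all tested genes, 20 were higher and 3 lower at an adjusted p under 0.05, beside 22.7% and 21.6%, and the median was 0.34, with medians against control of 0.75 in siNAE1 cells and 0.36 in siUBE2M cells. HSPA1B, an inducible HSP70, had 212, 226 and 255 CPM in siNAE1 cells, 83.6, 85.1 and 107 CPM in siUBE2M cells and 32.5, 27.1 and 28.9 CPM in control cells. The 3 groups were ordered without overlap, and the log2 fold change between the knockdowns was 1.33 (SE 0.08, adjusted p = 2.2e-14) by edgeR. HSPA1A, its near-identical copy with which it may share fragments, was called at 1.78.

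The cytosolic HSP90 system followed without reaching the fold change threshold. HSP90AA1 had 1754, 1922 and 1778 CPM in siNAE1 cells and 1160.5, 1101 and 1154 CPM in siUBE2M cells, without overlap, and a log2 fold change of 0.68. FKBP4 (0.84), AHSA1 (0.64) and DNAJA1 (0.64), which assist HSP90 or HSP70, were also higher. HSPA8, the constitutive HSP70, was far above control in both knockdowns and differed between them by 0.34. HSF1, the factor that drives these genes, did not pass (0.13), and HSPA2 was lower in siNAE1 cells (-0.63). The heat shock element GAANNTTC was in 9 of the 26 chaperones with an upstream window (34.6%), HSPA1A and HSPA1B among them, and in 4.13% of tested genes with one.

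In the ER, 1 of 32 folding and degradation genes was called higher and none lower, beside 2.85% and 4.99% of all tested genes, and 19 of the 32 were higher in siNAE1 cells at an adjusted p under 0.05 and 6 were lower, against 22.7% and 21.6%, and the median was 0.30. HYOU1, an ER chaperone of the HSP70 type, had 375, 381 and 391 CPM in siNAE1 cells and 185, 194 and 189 CPM in siUBE2M cells and was called at 1.01, while without siUBE2M replicate 1 it was at 0.991. HSPA5, the main HSP70 of the ER, had 808, 894 and 864 CPM in siNAE1 cells and 456, 439 and 476 CPM in siUBE2M cells and a log2 fold change of 0.90, and the control mean of 614 CPM lay between the knockdowns. XBP1, a factor of the unfolded protein response, was below control in both knockdowns and differed between them by -0.16. Proteasome subunits were higher in 23 of 36 cases and lower in 3 at an adjusted p under 0.05, against the same shares, with a median of 0.32. The 1 called subunit was PSMB9, an inducible catalytic subunit, at -1.91 (adjusted p = 0.045, edgeR), which rested on at most 0.81 CPM and lost its call when siNAE1 replicate 2 or 3 (adjusted p = 0.153 and 0.154), siUBE2M replicate 2 or either siURM1 library was left out.

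Of 38 glycolytic enzymes and targets of the hypoxia factor HIF, 22 were higher in siNAE1 cells and 7 lower at an adjusted p under 0.05, against 22.7% and 21.6% of all tested genes, with a median of 0.31. Of the 38, 2 were called higher and none lower, against 2.85% and 4.99%. NDRG1, a stress- and hypoxia-induced protein, had 336, 355 and 349 CPM in siNAE1 cells, 89.7, 91.7 and 96.8 CPM in siUBE2M cells and a control mean of 50.6 CPM, ordered without overlap, and was called at 1.90 (SE 0.06, adjusted p = 1.4e-20) by edgeR. ENO2, a neuronal enolase, was called at 1.09, and PGAM1 (0.85), PKM (0.76), ENO1 (0.64) and LDHA (0.56) were below the threshold. VEGFA was lower in siNAE1 cells (-0.41) and below control in both. The core of the hypoxia response element, ACGTG, was in 15 of 34 windows of this list (44.1%) and in 22.9% of those of tested genes.

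Cell cycle inhibitors and targets of p53, a pathway in which HEK293T cells are impaired by the large T antigen, did not move as one. Of 30 genes, 4 were called higher and none lower, against 2.85% and 4.99% of all tested genes. At an adjusted p under 0.05, 11 were higher and 8 lower, against 22.7% and 21.6%, and the median was 0.04. ZMAT3, an RNA-binding protein, had 81.3, 69.4 and 62.3 CPM in siNAE1 cells and 24.6, 27.7 and 22.5 CPM in siUBE2M cells, the latter close to the control mean of 28 CPM, and was called at 1.51. BTG2 (1.03), an antiproliferative factor, and FAS (1.01), a death receptor, were called as well. CDKN1A, the p21 inhibitor, had 153, 161 and 155 CPM in siNAE1 cells and 74.2, 74.4 and 85.7 CPM in siUBE2M cells without overlap, and its log2 fold change of 1.00 lay on the threshold. BTG2 was under the threshold without siUBE2M replicate 3 (0.996) and FAS without siNAE1 replicate 1 (0.898). CDKN1A was under it without any 1 of the control libraries, siNAE1 replicate 2 or siUBE2M replicate 1 or 2, at 0.955 to 0.994, and also by DESeq2 (0.997), with RLE normalization (0.997), with no filter (0.9999), with at least 10 counts in every library (0.981), in the 6 libraries alone (0.985) and with length and GC trends removed (0.884). MDM2, the ligase that degrades p53, was lower in siNAE1 cells (-0.92), as was CCNG1 (-0.70).

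Among genes of mitosis, 15 of 33 were lower in siNAE1 than in siUBE2M cells and 4 higher at an adjusted p under 0.05, against 21.6% and 22.7% of all tested genes. None of the 33 was called, beside 4.99% lower and 2.85% higher of all tested genes, and their median was -0.21. Their medians against control were 0.16 in siNAE1 cells and 0.37 in siUBE2M cells. MKI67, a proliferation marker, had 394, 368 and 376 CPM in siNAE1 cells, 655, 671 and 562 CPM in siUBE2M cells and 236, 216 and 245 CPM in control cells, ordered without overlap. CENPF, a kinetochore protein, had 256, 256 and 248 CPM in siNAE1 cells and 453, 442 and 403 CPM in siUBE2M cells, with the siNAE1 libraries at the control level (246, 246 and 273 CPM), and KIF11, a spindle motor, was lower (-0.87). CDC20 (0.39) and AURKB (0.33) were higher. DNA replication genes had 6 higher, 15 lower, none called and a median of -0.10.

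Gene length moved with the difference. With the tested genes in 4 bins of equal number, the median log2 fold change from the shortest to the longest listed length was 0.01, 0.06, -0.01 and -0.09, so that the second bin was highest. From the lowest to the highest GC content it was -0.08, -0.06, 0.01 and 0.07. With the trends in length and GC content removed, an alternative chosen after seeing the data, 1423 genes were called and the median of the mitosis genes was -0.23. The medians moved further for other lists, among them DNA replication genes, from -0.10 to -0.06, aminoacyl-tRNA synthetases, from -0.11 to -0.18, and immediate early genes, from 0.55 to 0.41. That of NEDD8 conjugation changed sign, from -0.05 to 0.06. Those of NF-kB genes and of cullin adaptors and receptors moved from 0.29 to 0.20 and from 0.06 to 0.14.

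Clustered histone genes, most of whose messages lack the poly(A) tail by which RNA was captured, had 26 of 71 members tested. Of these, 3 were called higher in siNAE1 cells, beside 2.85% of all tested genes, 11 were higher and none lower at an adjusted p under 0.05, beside 22.7% and 21.6%, and the median was 0.48. The median against control was 0.04 in siNAE1 cells and -0.44 in siUBE2M cells. HIST1H1C, a linker histone, had 22.7, 26.6 and 28.1 CPM in siNAE1 cells, 8.76, 7.21 and 10.5 CPM in siUBE2M cells and 13.6, 16.7 and 17.4 CPM in control cells, with siUBE2M lowest and no overlap, and a log2 fold change of 1.55. HIST1H4H was called at 1.72 and HIST1H4E at 1.39, the latter with an adjusted p of 0.0539 to 0.117 when siNAE1 replicate 1 or 2 or siUBE2M replicate 2 or 3 was left out. The CCAAT box was in 20 of 24 histone windows (83.3%) and 34.7% of those of tested genes. Of the 3 called histone genes, only 1, HIST1H1C, had it.

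Groups of redox, metal and lipid metabolism held single strong differences. Among 30 targets of NRF2, the factor of the antioxidant response, 16 were higher and 5 lower at an adjusted p under 0.05, against 22.7% and 21.6% of all tested genes, with a median of 0.19. Of the 30, 1 was called in each direction, against 2.85% higher and 4.99% lower. HMOX1, which breaks down heme, was called at 1.63, with 50.5, 53.1 and 56.9 CPM in siNAE1 cells and 18.1, 13.4 and 20.4 CPM in siUBE2M cells, while SLC7A11, named above, was the call in the other direction and GCLC, which makes glutathione precursor, was lower (-0.60). Of 16 iron and metallothionein genes, 3 were called higher and none lower, against 2.85% and 4.99% of all tested genes. MT2A had 23.9, 28.7 and 19.8 CPM in siNAE1 cells and 10.9, 8.66 and 12.4 CPM in siUBE2M cells (1.19), MT1X was at 1.56 and SLC30A1, a zinc exporter, at 1.08. TFRC, the transferrin receptor, had 341, 346 and 327 CPM in siNAE1 cells and 177, 174 and 163 CPM in siUBE2M cells and a log2 fold change of 0.98, just under the threshold. An upstream window was matched for 22 of the 30 NRF2 targets and 22 of 29 sterol genes, under the 80% of members required here, so a motif count for these lists is void.

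Of 29 genes of sterol synthesis and uptake, 13 were higher and 5 lower at an adjusted p under 0.05, against 22.7% and 21.6% of all tested genes, with a median of 0.15. Of the 29, 1 was called higher and 2 lower, against 2.85% and 4.99%. INSIG1, which holds back the SREBP factors of sterol synthesis, had 255, 247 and 252 CPM in siNAE1 cells and 106, 100.1 and 104 CPM in siUBE2M cells. Control cells had 48.4, 53.3 and 49.2 CPM, so the groups were ordered without overlap, and INSIG1 was called at 1.28. SC5D, a late enzyme of the pathway, was called lower at -1.13, with 23.7, 27.6 and 25.8 CPM in siNAE1 cells and 52.9, 55.1 and 61 CPM in siUBE2M cells. ABCA1, which exports cholesterol, was called lower at -1.52 and was above control in siUBE2M cells (2.36). Fatty acid synthesis had 7 of 16 genes higher, 3 lower and none called.

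Interferon-induced genes were lower in siNAE1 cells in 11 of 24 cases and higher in 2 at an adjusted p under 0.05, against 21.6% and 22.7% of all tested genes. Of the 24, 4 were called lower and 1 higher, against 4.99% and 2.85%, and the median was -0.31. The called genes were scarce: OAS3, an RNA sensor, had 0.384, 0.629 and 0.718 CPM in siNAE1 cells and 1.47, 3.02 and 1.54 CPM in siUBE2M cells, and DDX60 had 0.999, 0.839 and 1.26 CPM in siNAE1 cells and 3.61, 1.97 and 2.81 CPM in siUBE2M cells. IFIT3 lost its call without siNAE1 replicate 1 or 3, siUBE2M replicate 1 or 2 or either siURM1 library (adjusted p from 0.0605 to 0.172), and IFIH1 without siNAE1 replicate 2 or 3 or siUBE2M replicate 3 (0.0989 to 0.101). BST2, a tether of viruses, was the 1 called higher, at 1.32, and was at 0.97 without siUBE2M replicate 2. HERC5, the ligase for ISG15, had 27.5, 29.6 and 29.8 CPM in siNAE1 cells and 36.7, 40.3 and 37 CPM in siUBE2M cells, both above 11.4, 13.1 and 12.9 CPM in control cells.

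Many genes of the mitochondrion were slightly higher in siNAE1 cells. Of 77 mitochondrial ribosomal proteins, none was called, beside 2.85% higher and 4.99% lower of all tested genes. Their median was 0.33, with 0.25 against control in siNAE1 cells and -0.13 in siUBE2M cells. At an adjusted p under 0.05, 56 were higher and 6 lower, against 22.7% and 21.6% of all tested genes. Against the same shares, nuclear genes of the respiratory chain had 40 of 80 higher, 4 lower and a median of 0.19, and 9 of the 13 genes of the mitochondrial genome were higher, none lower, with a median of 0.29. The mitochondrial share of counts was higher in all 3 siNAE1 libraries than in any siUBE2M library, and its part in this difference was not tested. The 84 cytosolic ribosomal proteins had 17 higher, 16 lower and a median of 0.04. RPLP0, a stalk protein with many pseudogenes, was the exception among them, with 1104, 1174 and 1177 CPM in siNAE1 cells, 2344, 2251 and 2562 CPM in siUBE2M cells and 2321, 2378 and 2232 CPM in control cells, and a log2 fold change of -1.05 that was under the threshold (-0.997) without siUBE2M replicate 3.

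The remaining groups held few calls, and their counts at an adjusted p under 0.05 stand against 22.7% higher and 21.6% lower among all tested genes, as the called genes do against 2.85% and 4.99%. Of 53 translation initiation factors, 27 were higher, 15 lower and 1, EIF3CL, was called. Of 23 pentose phosphate genes 13 were higher and 4 lower, with TKTL1 called at 1.51 and IDNK at -1.77. Of 30 cytoskeletal genes and RhoA targets 13 were higher and 6 lower, with RHOB, a short-lived small GTPase, called at 1.20, TUBA1A at 1.01 and ACTA2, smooth muscle actin, at -1.33. TUBA1A was under the threshold without siNAE1 replicate 3 (0.996) or siUBE2M replicate 2 (0.979). Of 39 lysosome and autophagy genes 13 were higher and 10 lower, with GLA, a lysosomal galactosidase, called at 1.15 and the protease CTSB at -1.76, and of 30 apoptosis regulators 7 were higher and 9 lower with CASP10 called at -1.32. Of 20 NF-kB genes 6 were higher and 2 lower. CXCL8, a chemokine, was the called gene of the last group at 1.32 and lost its call without siNAE1 replicate 2 or 3 or siUBE2M replicate 2 or 3 (adjusted p from 0.078 to 0.193), by DESeq2 (0.053) and with thinned counts (0.0798). Of 200 zinc finger genes of chromosome 19, 3 were called in each direction (2.85% and 4.99% of all tested genes) and the median was 0.07, and of these 6 ZNF154 alone kept its call whichever library was left out.

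The 10 highest and 10 lowest genes were taken among the called genes whose mean reached 10 CPM and whose libraries did not overlap, and those not yet described are given here. SYT11, a vesicle protein of the synaptotagmin family, had 37.6, 36.4 and 35.2 CPM in siNAE1 cells, 5.38, 4.46 and 4.49 CPM in siUBE2M cells and 1.69, 2.64 and 2.52 CPM in control cells. All siNAE1 libraries lay above the others, with a log2 fold change of 2.93 (SE 0.14, adjusted p = 4.6e-17) by edgeR. RGS16, which turns off G proteins, had 59.6, 56 and 57.7 CPM in siNAE1 cells and 9.06, 9.64 and 11.7 CPM in siUBE2M cells against 40.2, 42.7 and 40.4 CPM in control cells, so the groups were ordered with siUBE2M lowest, and the log2 fold change was 2.51 (SE 0.10, adjusted p = 3.9e-19) by edgeR.

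ZCCHC12 had 69.1, 76.4 and 74.7 CPM in siNAE1 cells and 18.9, 15.1 and 14.9 CPM in siUBE2M cells, with a log2 fold change of 2.17. SUSD4 (2.12) and HES7 (2.07), a repressor of the segmentation clock, were likewise high in siNAE1 cells, and in siUBE2M cells all 3 genes overlapped with control. EIF3CL had 61.7, 84.3 and 10.9 CPM in siNAE1 cells and 10.8, 8.13 and 7.94 CPM in siUBE2M cells, so 1 siNAE1 library was at the level of control (16.2, 10.8 and 10.7 CPM) and the libraries were barely apart. Its near-identical copy EIF3C, with which it may share fragments, did not pass (-0.35, adjusted p = 0.12, edgeR).

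Among the lowest genes, CEP295, which elongates centrioles, differed through siUBE2M. It had 35.2, 35 and 29.4 CPM in siNAE1 cells, which overlapped with 35.6, 26.6 and 34.3 CPM in control cells, and 119, 128 and 98.6 CPM in siUBE2M cells, a log2 fold change of -1.79 (SE 0.10, adjusted p = 3.3e-15) by edgeR. C2orf48, listed as a long noncoding RNA, was also above control in siUBE2M cells (1.35) and differed by -1.94. CTSB, a lysosomal cysteine protease, differed through siNAE1, with 28.6, 29.1 and 27.9 CPM there, 97.8, 89.9 and 102 CPM in siUBE2M cells and 75.4, 83.6 and 78.7 CPM in control cells, and a log2 fold change of -1.76 (SE 0.08, adjusted p = 7.2e-18) by edgeR. NHSL1, a regulator of cell migration, had 12.8, 17.9 and 17.3 CPM in siNAE1 cells and 68.3, 64.9 and 59.3 CPM in siUBE2M cells, the latter overlapping with control (69.4, 66 and 67.1 CPM). DNAH1, an axonemal dynein (-2.05), and MSH5, a meiotic MutS protein (-1.64), were below control in siNAE1 cells. Against control in siUBE2M cells, DNAH1 was higher (0.62, adjusted p = 1.4e-04, edgeR) and MSH5 was lower (-0.99). The libraries were stranded but the strand setting of the counting is not stated, so a gene and an antisense neighbour may have shared reads.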

How the data were processed

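HEK293T messenger RNA of 11 libraries (3 control, 3 siNAE1, 3 siUBE2M and 2 siURM1) was analyzed. Per the study's methods and the submitters' processing notes, the authors aligned reads with HISAT2 2.0.5 to GRCh38 and counted fragments per gene with featureCounts 1.5.0-p3, and they deposited whole-number counts without normalization for 58735 genes. The authors also deposited FPKM values, used here only for levels per length and for markers. The annotation version and strand setting are not given in the sources used here. The 11 libraries entered 1 fit with 4 groups in edgeR 4.0.16 (R 4.3.3) after TMM scaling and filterByExpr, which left 18368 genes, and siNAE1 was contrasted with siUBE2M by the quasi-likelihood test with Benjamini-Hochberg adjustment. CPM are TMM-scaled, and the standard error is the log2 fold change over the square root of F. Gene lists were described by counts and medians with no set test. Their members, and the lists themselves, were chosen with earlier results of these data known. Named genes are the targets, the 10 highest and 10 lowest called genes whose mean reached 10 CPM and whose libraries did not overlap, genes called in opposite directions against control whose mean reached 5 CPM (none did), and list members. 1 gene that this rule selects is not reported here. Upstream windows came from RefSeq (GRCh38.p14). In simulated counts, 200 of 18368 genes, all with a mean of at least 10 CPM, were changed 3 or 4 times in either direction. Of these, edgeR recovered 200 with 3 false calls and DESeq2 200 with 1. No smaller change and no change in scarcer genes was planted, so recovery of such changes was not tested. The alternatives were DESeq2 1.42.0, RLE normalization, other filters and fold change thresholds, the 6 libraries alone, protein-coding genes, a replicate block and leaving out each library. The removal of length and GC trends and thinning were added after seeing the data. Figures used Python 3.11.15 and matplotlib 3.10.9.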

Additional observations from a re-analysis of the deposited data

How the results depend on the processing

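The number of genes called between the knockdowns was 1261 to 1501 under DESeq2, RLE normalization, no filter, the 6 libraries alone, each left-out library, removed length and GC trends and thinned counts. It was 780 with at least 10 counts in every library, 8134 without a fold change threshold (4164 higher and 3970 lower), 179 under glmTreat against a log2 fold change of 1 (88 higher and 91 lower) and 906 for protein-coding genes. The filter of 10 counts also gave 1484 genes between siNAE1 and control and 686 between siUBE2M and control, and left 387, 84, 38 and 271 of the called genes with a call against control in siNAE1 alone, siUBE2M alone, both and neither. The lower counts come from fewer genes tested or a larger change asked for. The share of higher calls was 35.9% under RLE normalization and 36.4% in TMM. With the replicate number as a replicate block, 1405 genes were called between the knockdowns. Same-numbered libraries had deviations that correlated at 0.0431, -0.0175 and 0.0787, and differently numbered ones at -0.101 to 0.066. Not every library correlated best with its own number. With 3 libraries per group and values this near 0, the correlations cannot decide whether the numbers mark pairs. Apart from left-out libraries, called genes near a threshold lost their calls by DESeq2 (CDKN1A, CXCL8, FGF21, IFIT3, PSMB9 and ZNF320), with no filter (CDKN1A, FGF21, IFIT3, PSMB9 and ZNF320), with at least 10 counts in every library (CDKN1A, FAS, HYOU1, SNHG15 and TUBA1A), in the 6 libraries alone (CDKN1A, HYOU1, TUBA1A and ZNF320), with RLE normalization (CDKN1A), with thinned counts (CXCL8, FGF21, ZNF320 and ZNF773), under the replicate block (CXCL8, FGF21, IFIT3 and ZNF320) and with length and GC trends removed (BTG2, CDKN1A, FOSL1, SLC7A11, SNHG15, TUBA1A, VLDLR and ZNF320). Of the genes named in the text, 4 changed sign, all of them short of the threshold with all libraries. ATF4 was at -0.00404 with at least 10 counts in every library, -0.0001595 in the 6 libraries alone, -0.1025 with length and GC trends removed and -0.0322 to 0.0591 over left-out libraries. Over left-out libraries EIF3C was at -0.607 to 0.00687, INHBE at -0.108 to 0.0885 and UBE2F at -0.172 to 0.0535. List medians changed sign only for NEDD8 conjugation (-0.0725 to 0.0626) and cytosolic ribosomal proteins (-0.0183 to 0.0902). Other list medians near 0 moved by over 1.5 times without changing sign, to 0.0985 to 0.246 for NEDD8 removal, 0.0327 to 0.138 for cullin adaptors and receptors, 0.0241 to 0.0975 for p53 targets, -0.135 to -0.0556 for DNA replication, -0.18 to -0.0538 for aminoacyl-tRNA synthetases, 0.0919 to 0.249 for fatty acid synthesis and 0.0369 to 0.0854 for zinc finger genes. Medians moved as much for cytoskeletal genes and RhoA targets (0.00575 to 0.155), apoptosis regulators (-0.114 to -0.0175) and lysosome and autophagy genes (0.0358 to 0.112). The cause of the changes was not tested. Low counts limit what can be said of the scarce genes.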

Other observations

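A group outside the lists, chosen after its values were seen and given as a description, was that of the small nucleolar RNA host genes, noncoding genes whose introns hold guide RNAs of ribosomal RNA modification. Of 18 tested genes named SNHG, 6 were called higher in siNAE1 than in siUBE2M cells and none lower, beside 2.85% and 4.99% of all tested genes, 14 were higher and 1 lower at an adjusted p under 0.05 by edgeR, beside 22.7% and 21.6%, and the median log2 fold change was 0.57. The medians against control were 0.48 in siNAE1 cells and 0.11 in siUBE2M cells. SNHG4 had 191, 188 and 182 CPM in siNAE1 cells, 70.1, 67.2 and 69.2 CPM in siUBE2M cells and 53, 54.7 and 49.6 CPM in control cells, ordered without overlap. SNHG15 had a smaller log2 fold change (1.02 against 1.44), with 150.2, 169.5 and 169.6 CPM in siNAE1 cells, 76, 76.8 and 89 CPM in siUBE2M cells and 177, 169 and 168 CPM in control cells. SNHG15 was under the fold change threshold without siNAE1 replicate 2 (0.987) or 3 (0.998) or siUBE2M replicate 1 (0.970) or 2 (0.973), with at least 10 counts asked of every library (0.998) and with the length and GC trends removed (0.980). SNHG16 was the 1 lower gene, at -0.42.

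Abundant genes named here after their values were seen included PRMT1, an arginine methyltransferase, and WDR77, the partner of PRMT5. PRMT1 had 409, 451 and 462 CPM in siNAE1 cells, 164, 159 and 181 CPM in siUBE2M cells and 352, 348 and 338 CPM in control cells, and WDR77 had 100.1, 107 and 113 CPM in siNAE1 cells, 49.1, 47 and 52.2 CPM in siUBE2M cells and 94.6, 89.8 and 91.5 CPM in control cells. CA2, a carbonic anhydrase, had 579.6, 648 and 596 CPM in siNAE1 cells, 215, 200.3 and 213 CPM in siUBE2M cells and 167, 175 and 180.3 CPM in control cells. MT-RNR1, the small mitochondrial ribosomal RNA, had a log2 fold change of 1.49 and MT-RNR2, the large one, of 0.48.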
